A study of Mus musculus with 6 samples.

Results

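The genes described here mark the interneurons of the inner retina: amacrine, horizontal and bipolar cells. They were chosen by name, with earlier results of these data known, as 31 genes among 55335 genes in the count table. Of these, 16 were used for amacrine cells, 5 for horizontal cells and 10 for bipolar cells. All 31 were found by identifier and passed the filter on low counts. RNA was sequenced from an anti-HA pull-down of homogenised mouse retina, labelled as retinal ganglion cells, the output neurons that send axons through the optic nerve. The 2 groups were naive eyes (3 libraries) and eyes of the SOHU model (3 libraries), in which silicone oil placed in the anterior chamber induces an ocular hypertension that the labels call under-detected, with retinas taken 1 week after the injection. The injection is entered in the protocol of all samples, naive included. All 6 libraries came from C57BL/6 mice of wild type genotype aged 10 weeks. The labels do not name the HA-tagged protein, the promoter or vector that would restrict it to ganglion cells, or whether animals were pooled. Nor do they tie the libraries of a group to different animals, so each p-value reflects variation among these libraries, possibly technical variation alone.

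Amacrine cells shape the signals between bipolar and ganglion cells and release mainly GABA or glycine. Starburst amacrine cells also release acetylcholine, and a rare amacrine type makes dopamine. A part of the amacrine cells lies displaced in the ganglion cell layer, beside the ganglion cells. Horizontal cells give lateral inhibition at the photoreceptor synapse, and bipolar cells carry the photoreceptor signal to the inner retina. Several of the genes are not exclusive to interneurons: the calcium-binding protein genes Calb2, Pvalb and Calb1 are also made by groups of mouse ganglion cells, Otx2 also by photoreceptors, and Prox1 also by bipolar cells and Müller glia.

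Promoter sequence is shown for 3 genes that passed the test (Tfap2b, C1ql2, Pvalb) and for the 2 bipolar genes that hold TAATCC (Cabp5, Trpm1), neither of which passed. Each run is the sequence before the RefSeq start site on GRCm38.p6, written 5′ to 3′ on the strand of the gene, and stops before any exon of the gene in the count table. Capitals mark matches, on either strand, to TAATCC (the core bound by the bipolar and photoreceptor factors OTX2 and CRX) or to GCCNNNGGC (the core bound by AP-2 factors such as those encoded by Tfap2a, Tfap2b and Tfap2c), and Tfap2b and C1ql2 hold neither in this window.
Tfap2b: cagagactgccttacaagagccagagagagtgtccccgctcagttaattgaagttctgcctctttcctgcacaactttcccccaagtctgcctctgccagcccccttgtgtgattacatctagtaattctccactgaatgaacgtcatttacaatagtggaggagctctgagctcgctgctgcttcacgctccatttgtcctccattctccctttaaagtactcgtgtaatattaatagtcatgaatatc
C1ql2: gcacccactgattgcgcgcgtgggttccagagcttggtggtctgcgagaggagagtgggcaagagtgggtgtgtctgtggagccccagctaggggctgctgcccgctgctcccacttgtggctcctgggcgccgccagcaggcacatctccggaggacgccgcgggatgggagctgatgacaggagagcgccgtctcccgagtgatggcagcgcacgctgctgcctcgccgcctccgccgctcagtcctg
Pvalb: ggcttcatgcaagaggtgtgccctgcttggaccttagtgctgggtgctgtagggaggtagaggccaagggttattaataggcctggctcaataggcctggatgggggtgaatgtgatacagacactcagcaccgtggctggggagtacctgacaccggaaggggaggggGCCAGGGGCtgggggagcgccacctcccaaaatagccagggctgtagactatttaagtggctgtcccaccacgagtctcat
Cabp5: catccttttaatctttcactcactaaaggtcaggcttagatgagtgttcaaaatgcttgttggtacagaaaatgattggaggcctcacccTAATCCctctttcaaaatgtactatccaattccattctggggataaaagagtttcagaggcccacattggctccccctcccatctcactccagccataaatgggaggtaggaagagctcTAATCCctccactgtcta
Trpm1: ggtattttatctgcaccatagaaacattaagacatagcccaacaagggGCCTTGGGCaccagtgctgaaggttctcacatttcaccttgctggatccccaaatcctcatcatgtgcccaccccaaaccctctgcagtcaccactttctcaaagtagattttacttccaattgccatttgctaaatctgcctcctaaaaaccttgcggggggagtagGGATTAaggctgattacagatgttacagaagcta
The windows are chr1:19211804-19212053 (plus strand) for Tfap2b, chr1:120340332-120340581 (plus) for C1ql2, chr15:78206401-78206650 (minus) for Pvalb, chr7:13397905-13398131 (plus) for Cabp5 and chr7:64153585-64153834 (plus) for Trpm1. RefSeq held such sequence for 26 of the 31 members. In the 250 bases before the start site, TAATCC occurred in Gad1, Nos1, Cabp5 and Trpm1, that is in 2 of 13 amacrine, 0 of 3 horizontal and 2 of 10 bipolar genes, against 6.38% of 27025 promoters of all genes. Cabp5 held 2 matches. GCCNNNGGC occurred in Gad2, Pvalb, Slc18a3, Trpm1 and Prkca, against 13.6% of all promoters. ATCAAT, the core of ONECUT factors, occurred in Slc6a9 alone (6.97% of all promoters), and TAATTA, a core of LIM and VSX homeodomain factors, in Tfap2a and Otx2 (4.90%). Both strands were searched, motifs could overlap, and a match is a description of the letters only.

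The libraries held 21691354 to 26824919 counted reads, and the lowest count of any member in a library was 53. In the order of replicates 1 to 3, the 20 ganglion cell markers summed to 7543, 4528 and 5268 CPM (reads scaled to a common library size by TMM factors) in the naive and 2352, 2111 and 3083 CPM in the SOHU libraries. The 14 rod markers summed to between 6327 and 9808 CPM over all libraries, so RNA of cells other than ganglion cells was present in both groups. No ganglion cell or rod marker was at 0 in any library. In such pull-down RNA, fewer cells of a type, less RNA per cell and less of their RNA carried into the pull-down cannot be told apart.

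All 31 members had a negative log2 fold change (SOHU minus naive), with a median of -0.69, while the median of all 17687 genes tested was 0.01 and 48.9% of them were negative. The median was -0.92 for the amacrine genes, -0.65 for the horizontal genes and -0.52 for the bipolar genes. The differences between these classes were not tested, and in edgeR the bipolar median lay below the horizontal median without naive replicate 1 (-0.66 against -0.65) and without SOHU replicate 3 (-0.79 against -0.75). Of the members, 8 fell past the threshold (edgeR quasi-likelihood test, adjusted p under 0.05 over all genes tested), and none rose. By list, 7 were amacrine and 1 horizontal, but Calb2, Pvalb and Calb1 among these 8 are also made by groups of ganglion cells. Over all genes, 5.93% were called lower and 8.02% higher. At an unadjusted p under 0.05, 20 of the 31 members were lower, beside 14.8% of all genes. In 20 members every SOHU library lay below every naive library, beside 19.7% of all genes, and 12 of these 20 did not pass the test. As the members were chosen with earlier results known, the shares beside all genes are a description only.

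**Figure D1:**
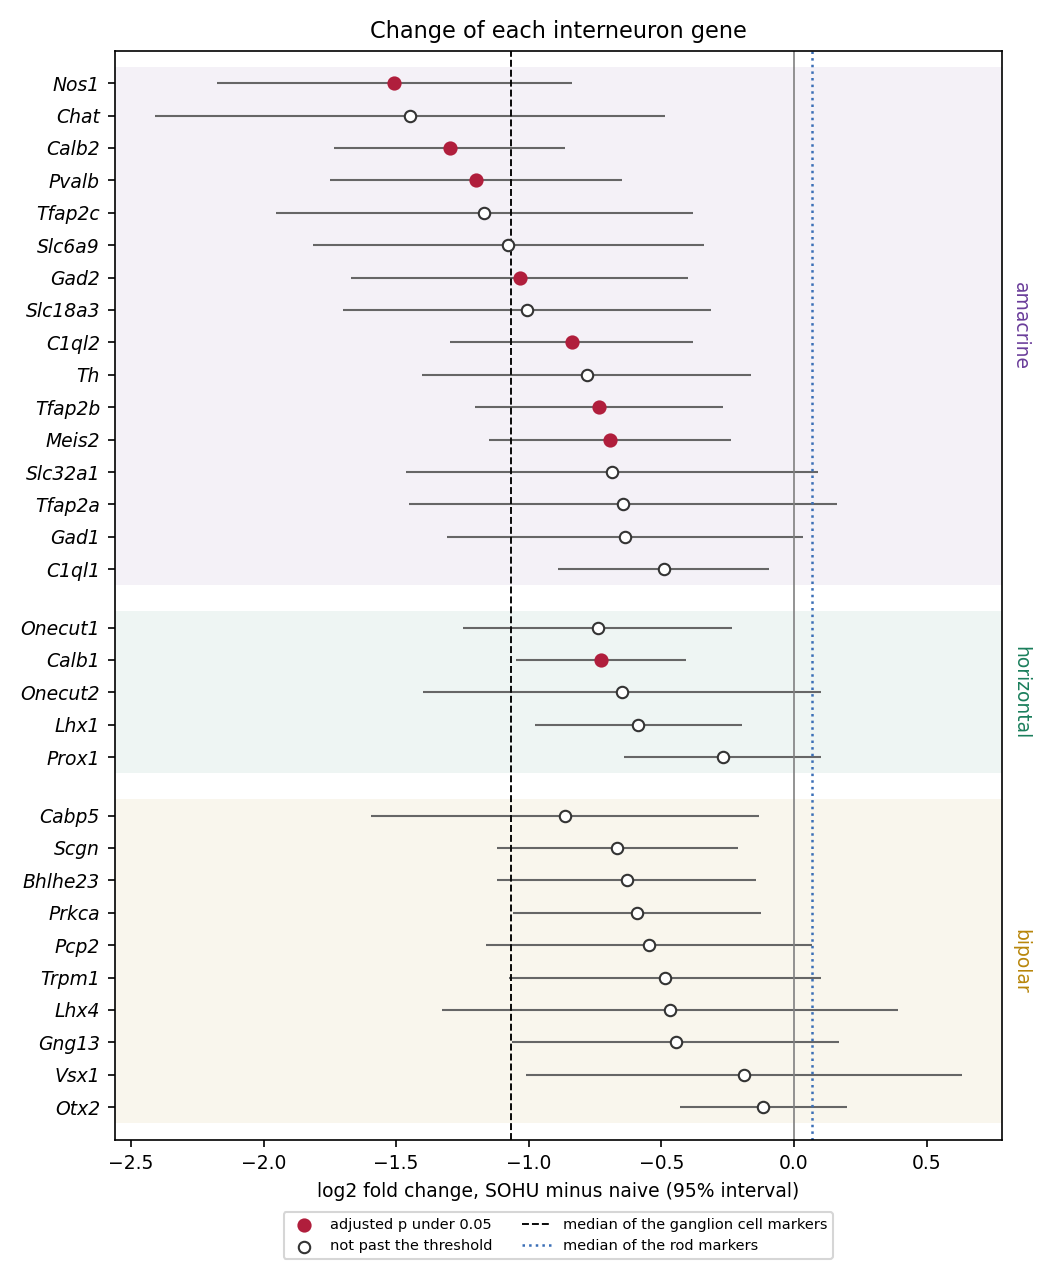
Log2 fold change of each interneuron gene, SOHU minus naive, on the x axis, with 95% intervals over 3 libraries a group, ordered within its cell class; filled points passed at adjusted p under 0.05. The 8 filled points are 7 genes of the amacrine list and Calb1. The bipolar genes lie between -0.86 and -0.12, right of the dashed line at the ganglion cell median of -1.07.

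How many members passed depended on the method, and all members called by any of them were lower in SOHU. DESeq2 called 20 members, beside 9.9% of all genes called lower, of which 13 were amacrine, 3 horizontal and 4 bipolar genes. Limma-voom called 13 (11 amacrine and 2 horizontal), beside 6.42% of all genes. Without a filter on low counts 15 passed, beside 5.24% of all genes, and Gad2 was then lost. With DESeq2 size factors, upper-quartile factors or a minimum of 1 CPM in 3 libraries 9 members passed, the 8 included, beside 6.05%, 6.58% and 7.26% of all genes.

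The calls also depended on single libraries. Without naive replicate 1 or naive replicate 3, edgeR called 0 genes of any kind and so 0 members. At an unadjusted p under 0.05 there were then 3919 and 4251 genes, among them 20 and 17 members. In these 2 omissions DESeq2 called 14 and 11 members (beside 3.68% and 5.27% of all genes) and limma-voom 0 and 0. Without naive replicate 2, edgeR called Calb2, Nos1 and Pvalb (beside 1.44%), DESeq2 8 members (6.34%) and limma-voom 4 (1.9%). Without SOHU replicate 1, edgeR called 6 members (4.91%), DESeq2 14 (9.38%) and limma-voom 9 (4.69%). Without SOHU replicate 2, edgeR called Calb2 alone (0.254%), DESeq2 11 members (6.04%) and limma-voom 0. Without SOHU replicate 3 the counts rose to 21 members in edgeR (10.2%), 27 in DESeq2 (13.1%) and 25 in limma-voom (10.1%). The median log2 fold change of the members was -0.97 without SOHU replicate 3 and -0.51 without SOHU replicate 1, beside -0.69 with all libraries.

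Among the 4 enzyme and transporter genes of inhibitory transmission, Gad2 alone passed the threshold. Gad2 encodes a glutamate decarboxylase that makes GABA. Its level was 100.6, 122.3 and 100.6 CPM in naive replicates 1 to 3 and 30.9, 48.3 and 78.8 CPM in SOHU replicates 1 to 3. Every SOHU library was below every naive library, and SOHU replicate 1 was the lowest. Gad2 fell 2.05-fold (log2 fold change -1.03, SE 0.28, adjusted p = 0.041). The adjusted p was 0.117, 0.124 and 0.105 without naive replicates 1 to 3 and 0.137 without SOHU replicate 2. Gad1, which encodes the other glutamate decarboxylase, stood at 383.9, 488.7 and 357.6 CPM in naive and 140.3, 273.2 and 377.7 CPM in SOHU. SOHU replicate 3 was inside the naive range, and Gad1 did not pass (-0.64, SE 0.30, adjusted p = 0.182). Slc32a1, the vesicular transporter that loads GABA and glycine, had 18.2, 19.2 and 18.5 CPM in naive and 5.40, 11.4 and 17.96 CPM in SOHU. Its SOHU replicate 3 lay just under the naive range, and it did not pass (-0.69, SE 0.35, adjusted p = 0.21). Slc6a9, the glycine transporter of glycinergic amacrine cells and of Müller glia, had 83.2, 104.7 and 85.0 CPM in naive and 54.6, 19.8 and 54.9 CPM in SOHU. Here SOHU replicate 2 was the lowest, unlike in the GABA genes, and the change did not pass (-1.08, SE 0.33, adjusted p = 0.0578). Slc6a9 shares 1429 exon bases with Ccdc24 and 46 with B4galt2, both on the opposite strand. Ccdc24 reached 10.1% and B4galt2 56.6% of the mean count of Slc6a9.

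Transcription factor and secreted-protein genes of amacrine cells included 3 that passed. Tfap2b encodes an AP-2 factor of amacrine and horizontal cells and is among the promoters shown. It had 258.4, 261.5 and 277.6 CPM in naive and 110.3, 155.6 and 212.8 CPM in SOHU. The naive libraries were close together, the SOHU libraries spread over a wider range below them, and Tfap2b fell 1.67-fold (-0.74, SE 0.21, adjusted p = 0.0454). Meis2, a homeobox gene of GABAergic amacrine cells, had 114.5, 107.8 and 102.3 CPM in naive and 48.0, 63.9 and 88.7 CPM in SOHU, and fell 1.62-fold (-0.69, SE 0.20, adjusted p = 0.0499). C1ql2, a secreted protein of the C1q family, had 148.5, 176.8 and 142.9 CPM in naive and 64.7, 81.2 and 115.9 CPM in SOHU. C1ql2 fell 1.79-fold (-0.84, SE 0.20, adjusted p = 0.0285), again with SOHU replicate 3 nearest to the naive libraries. Without SOHU replicate 2 the adjusted p was 0.136 for Tfap2b, 0.146 for Meis2 and 0.102 for C1ql2. Without SOHU replicate 1 it was 0.0507, 0.0608 and 0.0393, and without naive replicates 1, 2 and 3 it was between 0.0805 and 0.166 for the 3 genes. Their relatives did not pass. Tfap2c had 14.6, 17.8 and 14.2 CPM in naive and 3.53, 6.05 and 11.1 CPM in SOHU (-1.17, adjusted p = 0.054). For Tfap2a the change was smaller (-0.65, SE 0.36, adjusted p = 0.256), and its SOHU replicate 3 lay at 96.0% of the naive mean. Tfap2a shares exon bases with Gm26688 on the opposite strand, which reached 10.1% of its mean count. C1ql1, the abundant relative of C1ql2, had 490.7, 484.7 and 560.1 CPM in naive and 299.9, 325.4 and 467.3 CPM in SOHU (-0.49, SE 0.18, adjusted p = 0.092).

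Calb2, Pvalb and Nos1 had the largest falls among the members that passed. Calb2 encodes calretinin, a calcium buffer of amacrine and ganglion cells. Its level was 2596, 1848 and 2027 CPM in naive and 678.2, 933.1 and 1019 CPM in SOHU, so that even the highest SOHU library was far below the lowest naive library. Calb2 fell 2.46-fold (-1.30, SE 0.20, 95% interval -1.74 to -0.86, adjusted p = 0.00993). It passed in 4 of the 6 omissions of a library, with adjusted p = 0.0676 and 0.063 without naive replicates 1 and 3. Pvalb encodes parvalbumin, a calcium buffer of AII amacrine cells in some mammals and of ganglion cells in the mouse. It had 202.5, 95.3 and 139.3 CPM in naive and 56.7, 59.8 and 74.1 CPM in SOHU, and fell 2.29-fold (-1.20, SE 0.25, adjusted p = 0.0175). Nos1, the neuronal nitric oxide synthase of a group of amacrine cells, had 24.4, 16.03 and 15.9 CPM in naive and 4.82, 5.29 and 9.67 CPM in SOHU. Its fold change was the largest of the 31 (2.84-fold lower, -1.51, SE 0.30, adjusted p = 0.0163). Without SOHU replicate 2 the adjusted p was 0.0735 for Pvalb and 0.0686 for Nos1. Without SOHU replicate 1 it was 0.0581 and 0.0278, without naive replicate 1 0.0797 and 0.0842, and without naive replicate 3 0.0694 and 0.0639. Naive replicate 1 was the highest naive library for all 3 of these genes. The exact permutation test gave p = 0.1 for each, the smallest that 3 libraries against 3 allow (two-sided).

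The cholinergic genes of starburst amacrine cells had low levels in SOHU that varied widely between libraries. Chat, the acetylcholine-synthesising enzyme, had 15.5, 18.9 and 15.9 CPM in naive and 2.20, 5.74 and 10.5 CPM in SOHU. SOHU replicate 1 thus stood at 13.2% of the naive mean, the lowest relative level of any member in any library, from 53 reads. The change did not pass (-1.45, SE 0.43, adjusted p = 0.0522). Slc18a3, the vesicular acetylcholine transporter, whose gene lies within the Chat locus, had 20.2, 25.5 and 20.5 CPM in naive and 6.65, 9.15 and 17.1 CPM in SOHU (-1.01, SE 0.31, adjusted p = 0.0581). Th, the tyrosine hydroxylase of dopaminergic amacrine cells, had 10.97, 11.5 and 9.77 CPM in naive and 6.69, 3.77 and 8.29 CPM in SOHU (-0.78, SE 0.28, adjusted p = 0.0873). In these 3 genes no SOHU library overlapped the naive range, as in 19.7% of all genes with SOHU below naive, and none passed the threshold. Of other genes of acetylcholine or dopamine handling, Slc5a7 (-0.77, adjusted p = 0.309) overlapped between the groups. So did Slc18a2 (-0.36, adjusted p = 0.447) and Ddc (0.23, adjusted p = 0.788).

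**Figure D2:**
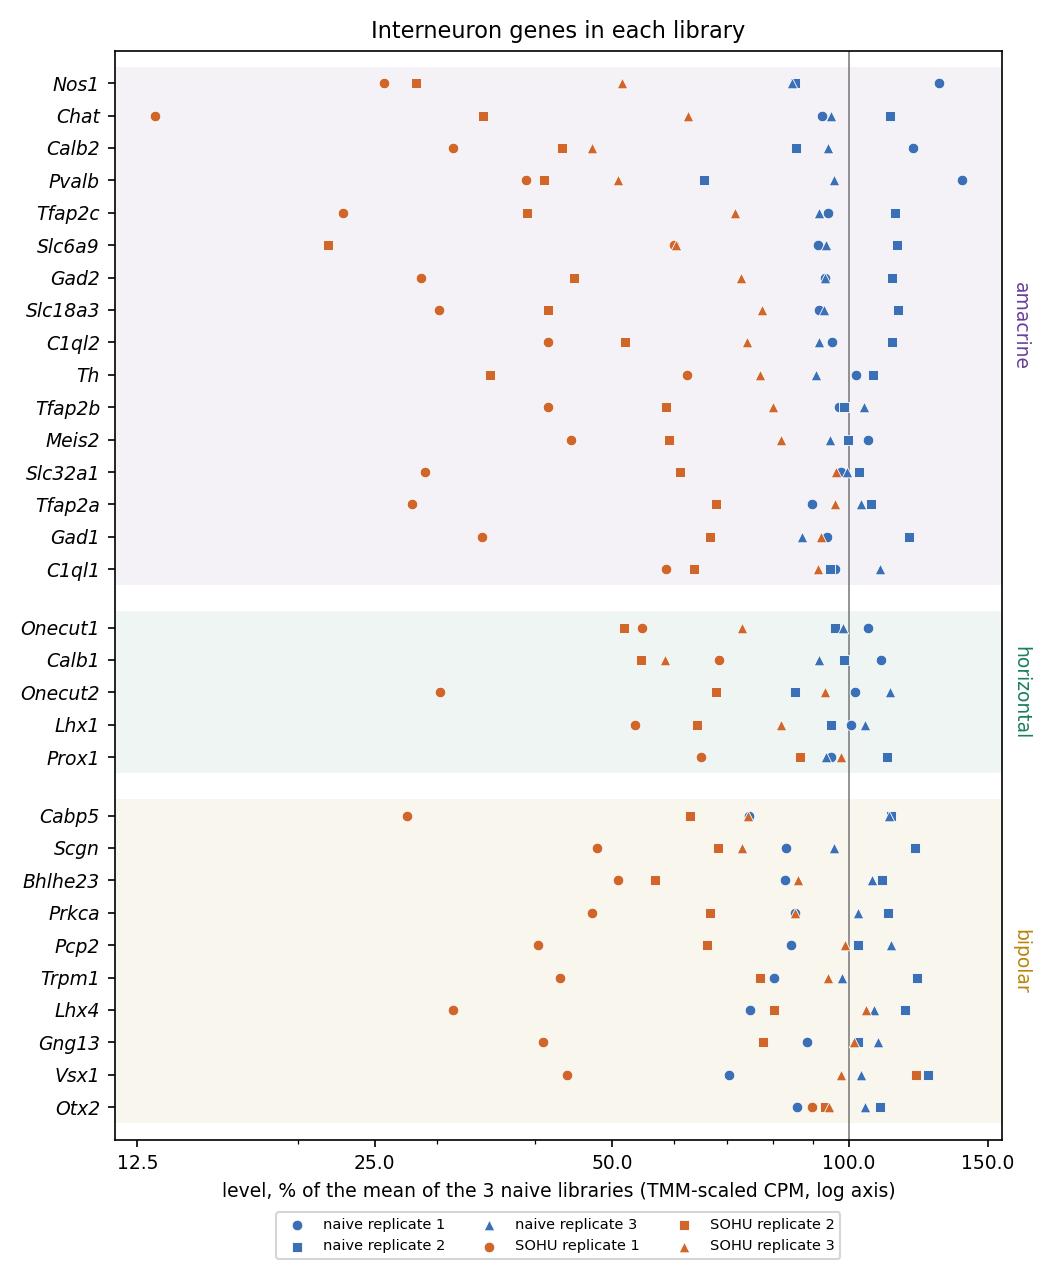
Level of each interneuron gene in each of the 6 libraries, as a percentage of the mean of the 3 naive libraries (log axis; TMM-scaled CPM), grouped by cell class. The SOHU libraries lie left of the naive libraries for 20 genes; SOHU replicate 3 is the SOHU library nearest to the naive level in most rows, and Otx2 shows the narrowest spread.

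Among the horizontal cell genes Calb1 passed. Calb1 encodes calbindin, the classical horizontal cell marker, which amacrine and ganglion cells also make. It had 1048, 942.2 and 875.5 CPM in naive and 653.8, 519.6 and 557.7 CPM in SOHU, without overlap, and fell 1.65-fold (-0.73, SE 0.14, adjusted p = 0.0162). Unlike most members, Calb1 was highest in replicate 1 of the SOHU libraries. The adjusted p was 0.0842, 0.0518 and 0.0639 without naive replicates 1 to 3 and 0.063 without SOHU replicate 2. The LIM homeobox gene Lhx1, needed for the placement of horizontal cells, had 40.4, 38.0 and 42.0 CPM in naive and 21.5, 25.7 and 32.9 CPM in SOHU (-0.59, SE 0.17, adjusted p = 0.0521). Onecut1, a transcription factor gene of horizontal cell genesis, had 7.24, 6.57 and 6.72 CPM in naive and 3.74, 3.54 and 4.999 CPM in SOHU (-0.74, SE 0.23, adjusted p = 0.0574). Both lay just outside the threshold with no overlap of the groups. Onecut2 (-0.65, adjusted p = 0.222) and Prox1 (-0.27, adjusted p = 0.305), transcription factor genes that ganglion cells or other interneurons also use, overlapped between the groups. Prox1 shares exon bases with the antisense gene Prox1os, which reached 13.8% of its mean count.

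Of the 10 bipolar cell genes edgeR called 0, beside 5.93% of all genes called lower. At an unadjusted p under 0.05, 4 were lower, beside 14.8% of all genes. DESeq2 called 4 and limma-voom 0, beside 9.9% and 6.42% of all genes called lower. Cabp5, a calcium-binding protein of rod and some cone bipolar cells, had the largest change. Its levels were 84.2, 127.4 and 126.5 CPM in naive and 30.9, 70.9 and 83.8 CPM in SOHU (-0.86, SE 0.32, adjusted p = 0.105). Scgn, the calcium sensor secretagogin of cone bipolar cells, had 34.2, 49.9 and 39.4 CPM in naive and 19.7, 28.1 and 30.1 CPM in SOHU (-0.67, SE 0.20, adjusted p = 0.0564). Prkca, the protein kinase C that marks rod bipolar cells, had 85.2, 111.7 and 102.5 CPM in naive and 47.0, 66.5 and 85.2 CPM in SOHU (-0.59, SE 0.21, adjusted p = 0.0861). In these 3 genes the groups did not overlap, but in Cabp5 and Prkca the highest SOHU library almost reached the lowest naive library. Every SOHU library lay below every naive library in 19.7% of all genes. The signalling genes of ON bipolar cells overlapped between the groups. Trpm1, the transduction channel, had 129.0, 195.9 and 157.5 CPM in naive and 69.1, 124.1 and 151.3 CPM in SOHU (-0.49, SE 0.26, adjusted p = 0.242). Pcp2 (-0.55, adjusted p = 0.207), a modulator of G proteins, and Gng13 (-0.45, adjusted p = 0.303), the G protein gamma subunit of these cells, had SOHU replicate 3 at 98.9% and 101.5% of the naive mean and SOHU replicate 1 at 40.3% and 40.9%. Pcp2 shares exon bases with Pet100 on the opposite strand, which reached 22.8% of its mean count.

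The transcription factor genes of bipolar cells included the 2 members with the smallest fold changes, Otx2 and Vsx1. Otx2, which bipolar cells and photoreceptors need, had 42.2, 53.9 and 51.6 CPM in naive and 44.1, 45.8 and 46.4 CPM in SOHU. The SOHU libraries lay inside the naive range, and no change was detected (-0.12, SE 0.14, adjusted p = 0.615). The 95% interval of the log2 fold change was -0.43 to 0.20, so changes of that size are not excluded. Otx2 shares exon bases with its antisense gene Otx2os1, which reached 34.5% of its mean count. Vsx1, a homeobox gene of some cone bipolar cells, had 4.54, 8.12 and 6.68 CPM in naive and 2.83, 7.85 and 6.30 CPM in SOHU (-0.19, SE 0.37, adjusted p = 0.765), and its sign turned without naive replicate 2 (0.02) or without SOHU replicate 1 (0.13). Lhx4, a LIM homeobox gene of cone bipolar cells, had 6.43, 10.1 and 9.24 CPM in naive and 2.70, 6.91 and 9.02 CPM in SOHU (-0.47, adjusted p = 0.444). Bhlhe23, a basic helix-loop-helix gene needed by rod bipolar cells, had 26.99, 35.8 and 34.8 CPM in naive and 16.5, 18.5 and 28.0 CPM in SOHU (-0.63, SE 0.22, adjusted p = 0.0809).

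Levels between genes were compared as naive mean CPM per kilobase of exon. Calb2 was the most abundant member with 1238, followed by C1ql1 with 347.5, Calb1 with 197.1, Pvalb with 140.0 and C1ql2 with 78.0. The most abundant bipolar genes were Pcp2 with 78.0 and Gng13 with 69.2. The transcription factor genes Onecut2, Lhx4 and Onecut1 were the lowest, with 1.39, 1.496 and 1.66. Genes with no call were therefore found at both high and low levels, for example C1ql1 and Lhx4.

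Further genes of the same cell types were taken from lists chosen by name, also with earlier results of these data known. Of 24 other amacrine genes tested, 3 fell and 1 rose, beside 5.93% called lower and 8.02% called higher over all genes. Their median log2 fold change was -0.59. The dopamine transporter gene Slc6a3 did not pass the filter. The neuropeptide gene Sst (somatostatin) fell 1.94-fold (-0.96, SE 0.18, adjusted p = 0.0155), the gap junction gene Gjd2 (connexin 36, which couples AII amacrine cells and cone bipolar cells) fell 1.55-fold (adjusted p = 0.0237), and Ppp1r17, found in a group of amacrine cells that use neither GABA nor glycine, fell 1.63-fold (adjusted p = 0.0308). Megf10, a spacing receptor of starburst and horizontal cells that glia also make, rose 2.53-fold (1.34, SE 0.18, adjusted p = 0.00952). Of 24 other bipolar genes 6 fell and 1 rose, beside the same shares of all genes, with a median of -0.54. The regulator of G protein signalling Rgs7 (-1.20), the synaptotagmin Syt2 (-0.89), the homeobox genes Irx6 (-1.14) and Isl1 (-0.88), the neurokinin receptor gene Tacr3 (-1.16) and Car10 (-0.83) fell. Isl1 is also made by ganglion and starburst amacrine cells. In edgeR the calls of the 10 genes named here were lost without naive replicate 1 (adjusted p from 0.0676 to 0.162). They were also lost without naive replicate 3 (0.063 to 0.12). Without SOHU replicate 2, 3 of the 10 still passed (Sst, Megf10 and Rgs7), and without naive replicate 2, 3 did (Megf10, Rgs7 and Irx6). Car10 (0.0594) and Tacr3 (0.0557) were lost without SOHU replicate 1, and Tacr3 (0.0577) also without SOHU replicate 3.

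Compared with markers of other retinal cells, the interneuron genes lay between the ganglion cell and rod markers. The median log2 fold change was -1.07 for the 20 ganglion cell markers, of which 19 fell (3 without SOHU replicate 2), and 0.07 for the 14 rod markers. Of the rod markers 0 passed in edgeR, with 1 at an unadjusted p under 0.05, DESeq2 called 1 higher and limma-voom 0. Of the 31 members, 6 had a lower log2 fold change than the ganglion cell median: Nos1, Chat, Calb2, Pvalb, Tfap2c and Slc6a9. The difference between the lists was not tested. As a sum, the amacrine genes stood at 37.3, 49.4 and 63.3% of the naive mean in SOHU replicates 1 to 3, and at 43.8, 56.4 and 81.5% without Calb2, which made up a large part of the sum. The horizontal genes stood at 66.7, 59.0 and 64.9%, and at 58.9, 79.3 and 93.5% without Calb1. The bipolar genes stood at 44.1, 71.3 and 89.8%. The lists of other genes of these cell types had different sums. They stood at 72.3, 83.1 and 81.6% (amacrine), 91.85, 69.3 and 69.4% (horizontal) and 76.3, 84.3 and 96.65% (bipolar). The ganglion cell markers stood at 40.7, 36.5 and 53.3% and the rod markers at 134.3, 86.7 and 92.7%. SOHU replicate 1 was thus the lowest SOHU library in the amacrine and bipolar sums and the highest in the rod sum. Of 16 Müller glia and astrocyte markers 12 rose, and their sum was 14450 to 19320 CPM in the naive libraries and 54450, 34760 and 27530 CPM in SOHU replicates 1 to 3. Without SOHU replicate 2, 5 of the 16 rose. Of 12 microglia and macrophage markers tested 4 rose (0 without SOHU replicate 1 or SOHU replicate 2), and all 13 listed summed to 25.95 to 58.1 CPM in naive and 66.0 to 165.3 CPM in SOHU. The part of these glial and immune transcripts in the lower interneuron values was not tested.

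**Figure D3:**
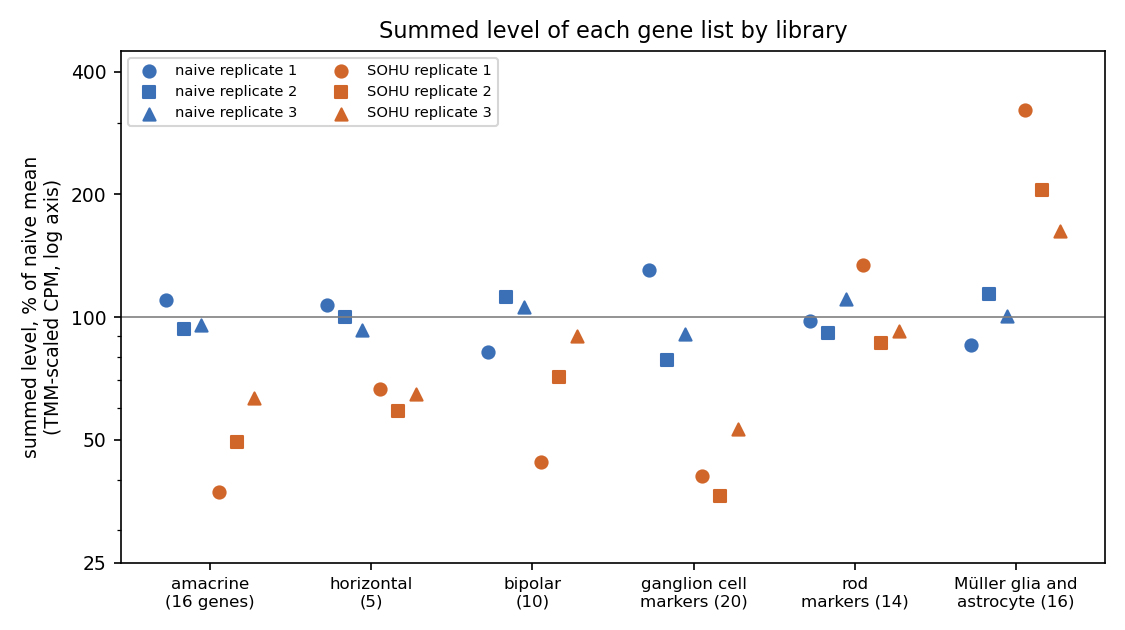
Summed level of 6 gene lists in each library, as a percentage of the mean of the 3 naive libraries (log axis; TMM-scaled CPM). SOHU replicate 1 is lowest for the amacrine (37.3%) and bipolar (44.1%) genes and highest for the Müller glia and astrocyte markers (321.7%).

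The members also differed between libraries of the same group. SOHU replicate 3 was the highest SOHU library in 29 of the 31 members, beside 32.7% of all genes, and SOHU replicate 1 was the lowest in 27, beside 36.8% of all genes. In SOHU replicate 1, 22 members stood at or under 50% of their naive mean. In SOHU replicate 3 only Calb2 did so, and 12 members stood above 90%. Among the naive libraries, replicate 1 was the highest for all 20 ganglion cell markers and the lowest for all 10 bipolar members. Of the 24 other bipolar genes, naive replicate 1 was the lowest in 15 and the highest in 5. Relative to the mean of naive replicates 2 and 3, replicate 1 had a median log2 ratio of 0.52 for the ganglion cell markers (0.20 to 0.79), -0.39 for the bipolar, -0.10 for the amacrine and 0.04 for the horizontal members. The log2 ratio was 0.79 for Pvalb, 0.61 for Nos1, 0.42 for Calb2 and 0.21 for Calb1, and these 4 members alone lay within the range of the ganglion cell markers. The GABA genes Gad1 (-0.14) and Gad2 (-0.15) lay outside it. These ratios compare libraries, not conditions, and carry no test.

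**Figure D4:**
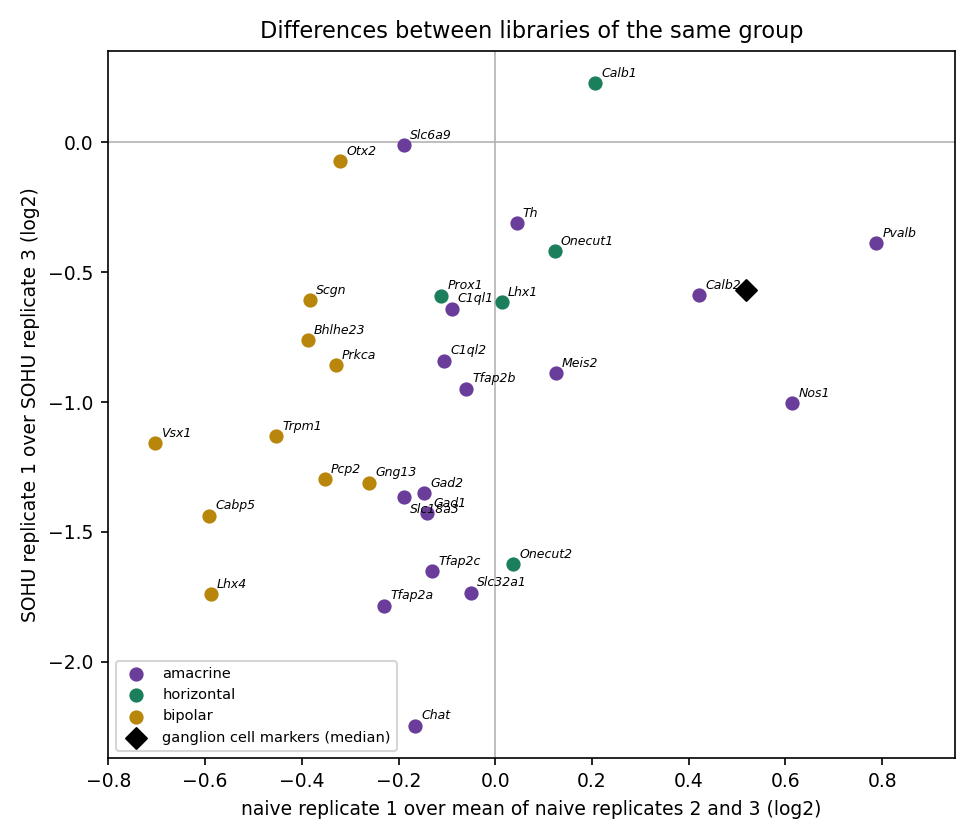
Log2 ratio of naive replicate 1 to the mean of naive replicates 2 and 3 (x axis) and of SOHU replicate 1 to SOHU replicate 3 (y axis) for each member, coloured by cell class; the diamond is the median of the ganglion cell markers. All 10 bipolar genes lie left of 0, and Calb2 and Nos1 are the members nearest to the diamond's x position of 0.52.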

How the data were processed

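The authors deposited raw counts of reads for every gene, with exon coordinates and exon length per the file headers, for each library and in 1 table whose 6 columns equalled the single files. The submitters' processing notes list featureCounts, HISAT2, HISAT, Trim Galore, MultiQC and bcl2fastq 2.17, and build mm10. Annotation release, strand setting and the treatment of multiply aligned reads: not given in the sources used here. Of 55335 genes, 55154 received a symbol from GENCODE by Ensembl identifier. Sample titles gave the groups. filterByExpr left 17687 genes, TMM factors were 0.943 to 1.039, and SOHU was tested against naive by edgeR 4.0.16 (quasi-likelihood, R 4.3.3) with Benjamini-Hochberg adjustment at 0.05. The script was tested on simulated data. Alternatives were DESeq2 1.42.0, limma-voom (limma 3.58.1), other scalings and filters, a replicate block and omission of each library. Within groups, replicates differed by more than sampling noise (chi-square per degree of freedom 12.6 to 79.0). Log2 fold changes are SOHU minus naive. All members are named, with at most 6 genes past the threshold in each other list and a few that did not pass. Some results of the other lists are not reported here. The members and lists were chosen with earlier results of these data known.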

Additional observations from a re-analysis of the deposited data

How the results depend on the processing

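Over all genes, 2467 passed with edgeR, 3775 with DESeq2 and 2070 with the replicate block; among the 31 members 8 passed with edgeR, 20 with DESeq2, 15 without a filter on low counts, 13 with limma-voom and 13 with the replicate block (7 of the 8 included, Meis2 lost, 3 bipolar genes gained, beside 5.04% of all genes called lower). Whether the replicate numbers pair the samples was not settled. Correlations of deviations between same-numbered naive and SOHU libraries were 0.163, 0.251 and 0.004. Naive replicates 1 and 2 correlated best with their own number, and naive replicate 3 did not (0.095 with SOHU replicate 2). With 3 libraries a group the deviations within a group depend on each other, so these correlations cannot decide the pairing. Omitting each library in turn gave 0 to 3896 genes and 0 to 21 members in edgeR. The same omissions, added after seeing the data, gave 1772 to 4722 genes and 8 to 27 members in DESeq2, with 14 members without naive replicate 1 and 14 without SOHU replicate 1. In limma-voom they gave 0 to 3859 genes and 0 to 25 members, with 941 genes and 4 members without naive replicate 2. Vsx1 was the member that changed sign: its log2 fold change was 0.02 in edgeR and 0.0093 in DESeq2 without naive replicate 2, and 0.13, 0.14 and 0.17 in edgeR, DESeq2 and limma-voom without SOHU replicate 1, with a lowest value in edgeR of -0.48 without SOHU replicate 2. The cause was not tested. The fewest reads of a member in a library were 53 (Chat, SOHU replicate 1), where Calb2 had 16323.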
